A study of Mus musculus with 20 samples.

Results

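The comparison described here sets 3 arrays of embryonic stem cell-like cells grown from newborn mouse testis (ESC_like) against 3 arrays of embryonic stem cells (ESC), which are 6 of the 20 arrays of the series. Arrays were chosen by their titles alone, and all 18193 genes measured on them were tested. The ESC_like cells came from testes of postnatal day 0 to 2, were provided by another laboratory, and were grown on mouse embryonic fibroblast feeder cells with leukemia inhibitory factor (LIF). Their strain, and whether the 3 arrays hold 1 line or several, are not given in the labels used here. The ESC were the RW4 line, also kept on fibroblast feeders with LIF. The 3 ESC arrays are thus samples of 1 line, and the spread between them may be technical. Each p-value rests on the spread within groups, pooled over all 20 arrays, and not on these 6 arrays alone. 4 other groups serve as background: germline pluripotent stem cells (gPS, 5 arrays) and the germline stem cells they came from (GSC, 3 arrays), both from Oct4-GFP mice, neural stem cells from Olig2-GFP ESC (NSC, 3 arrays), and fibroblasts (MEF, 3 arrays) of C3H embryos at day E12.5. Cell origin, strain, line and laboratory of derivation cannot be told apart in this design.

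Mouse embryonic stem cells are held in self-renewal by a network of transcription factors around Oct4 (the product of Pou5f1), Sox2 and Nanog, and LIF supports that network through Stat3. Cells with the same properties can arise in cultures of newborn testis, where the germ cells themselves express Pou5f1. Germ cells differ from embryonic stem cells in their imprints, the DNA methylation marks that leave 1 parental copy of certain genes silent, and in many genes of the germ line that somatic and pluripotent cells keep methylated and low. Feeder fibroblasts are lysed together with the stem cells unless they are removed, so fibroblast RNA can enter either kind of sample.

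All values are log2 intensities made with RMA, and a difference of 1 is a 2-fold difference. A gene was called when the Benjamini-Hochberg adjusted p of limma over all 18193 genes was under 0.05 and the difference was at least 2-fold. By that rule 930 genes were higher in ESC_like (5.11% of genes) and 382 were lower (2.10%), which together make 7.21%. These shares are the background for the counts of every gene list below. The arrays of the groups did not overlap for any of these 1312 genes, but they did not overlap for 54.2% of all genes either, with ESC_like above ESC for 23.2% and below for 31.0%. Replicates lay close together, with a median SD over genes of 0.103 in ESC_like and 0.131 in ESC. The median difference over all genes was -0.09. In Pearson correlation across all genes, which are not independent replicates, ESC_like arrays correlated with ESC arrays at 0.961 to 0.968, within ESC_like at 0.996 to 0.998 and within ESC at 0.994 to 0.997. Mean correlations of ESC_like with the other groups were 0.973 with gPS, 0.917 with MEF, 0.901 with GSC and 0.890 with NSC. RNA quality was alike, with the 3' minus 5' difference of the beta-actin control probes at 0.34 to 0.45 in ESC_like and 0.27 to 0.51 in ESC.

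The core of the pluripotent state was present in both groups. Of 8 markers of pluripotent cells, 7 were not called and 1, Zfp42, was lower in ESC_like. Pou5f1 had 11.98, 11.45 and 11.85 in ESC_like, against 12.45, 12.34 and 12.27 in ESC, a difference of -0.59 ± 0.17 (SE), adjusted p = 0.011. The 2 groups did not overlap, but the difference was smaller than 2-fold. Nanog, the homeobox factor that stabilises self-renewal, had 12.07, 11.80 and 11.93 in ESC_like, against 11.36, 11.36 and 11.30 in ESC, a difference of 0.59 ± 0.14 (SE), adjusted p = 0.0029, also under 2-fold and in the other direction. Sox2 differed by -0.24 (adjusted p = 0.24) and the Nodal co-receptor Tdgf1 by -0.27 (adjusted p = 0.29). Esrrb, Fgf4 and Utf1 differed by -0.62, -0.62 and 0.70, none of them called. The 8 markers summed to 14.09 to 14.28 in ESC_like, against 14.55 to 14.61 in ESC and at most 8.51 in MEF, on the log2 scale. This and all later marker sums add linear intensities before the log2 is taken, so the brightest genes weigh most.

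Zfp42, which encodes the zinc-finger protein Rex1 and is a classical marker of naive embryonic stem cells, was the marker that fell. It had 9.88, 9.86 and 9.93 in ESC_like, against 12.29, 12.26 and 12.27 in ESC. The difference was -2.38 ± 0.13 (SE), adjusted p = 3e-11, a 5.22-fold lower level in ESC_like, and the groups lay more than 2 units apart. The mean of gPS was 9.38 and that of GSC 7.24. Zfp42 lies on chromosome 8, whose expressed genes had a median difference of -0.355, and the part of that shift in the fall of Zfp42 was not tested.

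In the wider pluripotency list of 38 measured genes, 2 were higher and 4 lower, with a median of -0.07. Over all genes 5.11% were higher and 2.10% lower. Dppa5a, an RNA-binding protein of pluripotent cells in this list, differed by -0.03 (adjusted p = 0.87). Besides Zfp42 the falls were Tcl1, a coactivator of Akt kinase, at -1.43 (adjusted p = 2.4e-06), Rex2, a zinc-finger gene related to Zfp42, at -1.10 (adjusted p = 0.0051), and the nuclear receptor Nr5a2 at -1.02 (adjusted p = 8.3e-05). The 4 probe sets of Nr5a2 disagreed, with differences of -1.02 to 0.40, and its call was lost without ESC_like replicate 1 or without ESC replicate 2. Klf4, a factor used in reprogramming, had 11.01, 11.03 and 11.26 in ESC_like, against 9.31, 9.49 and 9.14 in ESC, a rise of 1.79 ± 0.25 (SE), adjusted p = 1.7e-05. It is also high in MEF, at 9.70, but ESC_like lay above that level on all 3 arrays. Alpl, which encodes the alkaline phosphatase by which stem cell colonies are stained, rose by 1.25 (adjusted p = 0.0047), while MEF stood at 4.87.

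**Figure D1:**
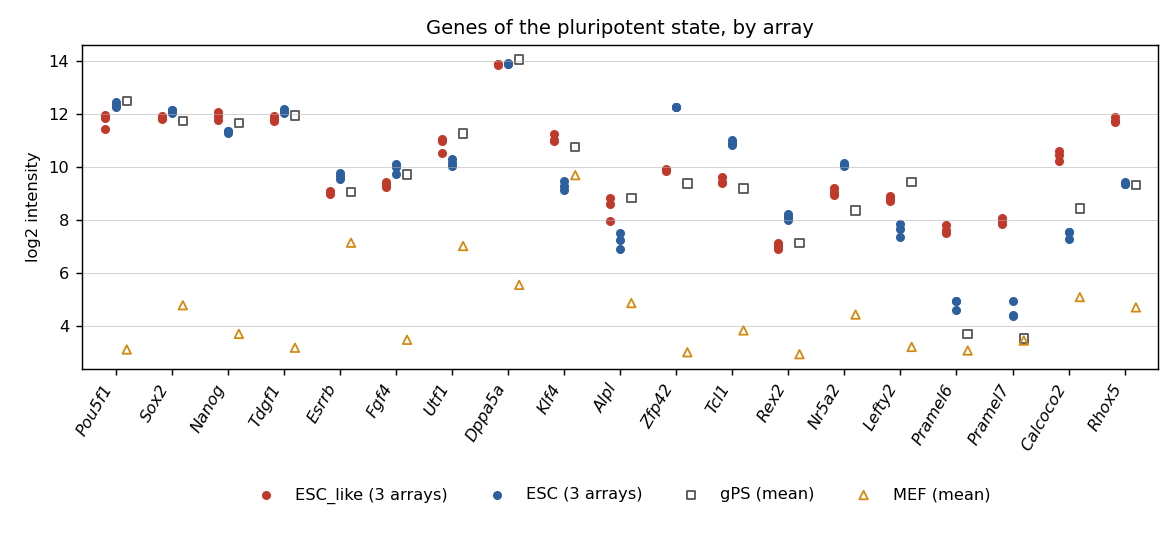
Log2 intensity of 19 genes of the pluripotent state, cleavage stage and X-linked homeobox family, with 3 arrays of ESC_like (red) left of 3 of ESC (blue) and the means of gPS (squares) and MEF (triangles). Pou5f1, Sox2, Nanog, Tdgf1 and Dppa5a lie high in both groups, Zfp42 is near 10 in ESC_like and above 12 in ESC, and Pramel6, Pramel7, Calcoco2 and Rhox5 are higher in ESC_like.

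Some genes of the later, primed epiblast rose. Of 17 measured members 5 rose and none fell, with a median of 0.20. The neural cadherin Cdh2 had 8.85, 9.10 and 8.77 in ESC_like, against 7.18, 7.08 and 6.79 in ESC, a difference of 1.89 ± 0.18 (SE), adjusted p = 9.1e-08, and the transcription factor Sox4 rose by 1.67. MEF express both, at 10.35 and 11.10, and the part of feeder RNA in these 2 rises was not tested. The other members that rose were low in MEF: Lefty2, a secreted inhibitor of Nodal, by 1.17 (adjusted p = 4.8e-05), the kinase Pim2 by 1.16 (adjusted p = 5.9e-08) and the POU factor Pou3f1 by 1.03 (adjusted p = 0.0028). The call of Pou3f1 was lost without ESC_like replicate 3 and without ESC replicates 2 or 3. The E-cadherin gene Cdh1, its epithelial counterpart, was lower in ESC_like by -1.13 (adjusted p = 0.00078), and it too lies on chromosome 8. Nodal and Dnmt3b, members with high levels, differed by 0.06 (adjusted p = 0.86) and 0.20 (adjusted p = 0.51).

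A small set of genes of the cleavage stage and inner cell mass rose that are low in fibroblasts. Pramel7, a leucine-rich repeat protein of the preimplantation embryo that sustains the naive state, had 7.97, 8.08 and 7.84 in ESC_like, against 4.43, 4.95 and 4.38 in ESC. Pramel6, its neighbour on chromosome 2, had 7.64, 7.80 and 7.50 in ESC_like, against 4.59, 4.95 and 4.96 in ESC. The differences were 3.38 ± 0.15 (SE), adjusted p = 1.4e-12, for Pramel7, and 2.81 ± 0.13 (SE), adjusted p = 2.4e-12, for Pramel6, or 10.4-fold and 7.04-fold. MEF stood at 3.45 and 3.08, and gPS at 3.53 and 3.69, all below ESC. Both calls rest on probe sets whose names mark shared sequence: the other probe sets gave 0.50 for Pramel7 and 0.71 for Pramel6, and RNA of close relatives may hybridise to the same probes. Pramel1, the remaining family member measured, differed by -0.28. Calcoco2, an autophagy receptor, had 10.46, 10.24 and 10.63 in ESC_like, against 7.55, 7.57 and 7.30 in ESC, a rise of 2.97 ± 0.30 (SE), adjusted p = 2e-07, on chromosome 11. These 3 were all the calls among 9 measured genes of the cleavage-stage list, whose median was 0.13. Zfp352, a gene that marks the two-cell-like state, was low in both groups and differed by -0.14 (adjusted p = 0.46).

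Of the 930 genes that rose, 124 (13.3%) had a lower mean in MEF than in ESC, against 60.1% of all genes. The rise and this MEF difference share the ESC arrays, so the 2 shares are not independent of the call. Of the 124, 18 lie on the X chromosome, 16 on chromosome 11 and 7 on chromosome 6, which hold 3.39%, 7.93% and 5.45% of all genes. The largest rise among them, Gm21283 on chromosome 8, had 8.03, 7.89 and 7.84 in ESC_like, against 3.57, 3.15 and 3.39 in ESC, a 23.4-fold difference from ESC levels near the floor, and its highest mean in the other groups was 3.47, in gPS. Rpgrip1, a protein of the photoreceptor connecting cilium, had 11.52, 12.14 and 11.80 in ESC_like, against 7.47, 7.88 and 7.54 in ESC, but its 4 probe sets ranged from -0.14 to 4.19. The next 2 were 1700013H16Rik at 4.11 and AI662270 at 3.72, followed, apart from Pramel7, Pramel6, Calcoco2 and the immediate early gene Fosb, by Pnma5 at 3.14, the apolipoprotein Apoc2 at 2.96, the homeobox gene Crxos at 2.83 and Gm364 at 2.76. The X-linked 1700013H16Rik, Pnma5, Gm364 and Efhc2 had GSC means of 7.54, 9.72, 9.25 and 7.63. All 4 of those exceed the ESC_like means of 6.70, 8.70, 6.74 and 7.10. X-linked Rhox5, described next, had a lower mean in GSC than in ESC_like, and no count over the 18 was made.

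Rhox5, the founding member of the reproductive homeobox cluster on the X chromosome, had 11.71, 11.88 and 11.74 in ESC_like, against 9.37, 9.43 and 9.37 in ESC. The difference was 2.39 ± 0.54 (SE), adjusted p = 0.002, a 5.23-fold rise, while MEF and GSC stood at 4.71 and 4.54. Its neighbours Rhox6 and Rhox9 differed by 0.20 (adjusted p = 0.87) and -0.17 (adjusted p = 0.82). Of 10 measured Rhox, Xlr and Mage genes 4 rose and none fell, with a median of 0.75. The others were Maged2, Magea5 and Maged1, at 1.33, 1.33 and 1.06. Maged1 lost its call without ESC_like replicate 1 or 3 or ESC replicate 3. The highest member, Mageb16, differed by -0.24 (adjusted p = 0.21).

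Germ line genes moved in both directions. Tex19.1, which protects germ cells and embryonic stem cells from retrotransposons, had 10.11, 9.98 and 10.25 in ESC_like, against 7.47, 7.36 and 7.33 in ESC, a rise of 2.73 ± 0.26 (SE), adjusted p = 9.3e-08. Its ESC_like mean was above the GSC mean of 9.65. Dazl, an RNA-binding protein that licenses germ cells for gametogenesis, had 7.34, 7.83 and 7.64 in ESC_like, against 5.06, 5.15 and 5.16 in ESC, a rise of 2.48 ± 0.15 (SE), adjusted p = 8.9e-11, still far below the GSC mean of 12.21. Smaller rises were those of the testis-specific ADP/ATP carrier Slc25a31 (1.44), the piRNA factor Mael (1.40), Tdrd7 (1.64) and Tktl1 (1.27). Tdrd7 had a higher mean in MEF, 7.89. The probe sets of Tdrd7 and Tktl1 disagreed, with 0.03 and 0.12 for the lowest. Of 26 measured germ cell and piRNA genes 6 rose and 1 fell, with a median of 0.21. The gene that fell was Prdm1, the repressor that specifies primordial germ cells, at -1.51 ± 0.49 (SE), adjusted p = 0.025, and leaving out any 1 of the 6 arrays ended its call. Ddx4, the germ cell helicase, was not called, at -0.41 (adjusted p = 0.24). The 26 genes summed to 11.17 to 11.23 in ESC_like, against 10.38 to 10.43 in ESC and 15.31 to 15.40 in GSC, on the log2 scale. Tex19.1 makes up a large part of the ESC_like sum, which therefore does not show a rise of the list as a whole. Of the 26 genes, 12 had an ESC_like mean under 5 and 16 an ESC mean under 5.

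The synaptonemal complex, the protein ladder that joins paired chromosomes in meiosis, held the largest fall among the germ line lists. Its lateral element gene Sycp3 had 4.88, 5.25 and 4.64 in ESC_like, against 9.13, 9.53 and 9.34 in ESC. That is a difference of -4.41 ± 0.23 (SE), adjusted p = 7.5e-12, 21.2-fold lower in ESC_like, where it stood near its NSC mean of 4.44 and MEF mean of 3.70. The mean of gPS was 6.93, between the groups. Mnd1, a recombination factor, and the cohesin subunit Stag3 also fell, with differences of -1.46 (adjusted p = 4.6e-06) and -1.12 (adjusted p = 7.4e-05). Hormad1, which recruits the recombination machinery to chromosome axes, rose by 1.62 (adjusted p = 9.4e-05), and the central element gene Syce1 by 1.39 (adjusted p = 0.013). The other central element gene Syce2, with a level above 10 in both groups, differed by -0.75 (adjusted p = 7.6e-05). Meiosis genes thus gave 2 rises and 3 falls among 25 measured, with a median of -0.23.

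Some of these promoters carry the E-box CACGTG, a palindrome that reads alike on both strands and is bound by Myc, Max and Mga. It was searched in the 250 bases before the annotated start, in RefSeq windows on GRCm38.p6, and found in 6.05% of 27025 genes, each by its first listed window, with 2 or more copies in 0.448%. Of 79 measured genes of the germ line lists 63 had a window, and 18 of those held an E-box. It was present in 3 of 10 genes that rose, 2 of 4 that fell and 13 of 49 that were not called, so all 3 outcomes included genes with it. The 5 called genes that hold it are shown with the E-box in capitals, first the 2 that fell and then the 3 that rose, and Dazl follows as a riser without one.
Sycp3 (chr10:88459337-88459586, plus strand): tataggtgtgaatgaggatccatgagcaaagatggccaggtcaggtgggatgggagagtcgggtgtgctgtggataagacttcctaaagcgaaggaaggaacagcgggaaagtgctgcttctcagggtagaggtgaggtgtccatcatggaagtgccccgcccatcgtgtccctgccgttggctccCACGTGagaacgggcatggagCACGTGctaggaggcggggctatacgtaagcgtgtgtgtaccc
Stag3 (chr5:138280259-138280508, plus strand): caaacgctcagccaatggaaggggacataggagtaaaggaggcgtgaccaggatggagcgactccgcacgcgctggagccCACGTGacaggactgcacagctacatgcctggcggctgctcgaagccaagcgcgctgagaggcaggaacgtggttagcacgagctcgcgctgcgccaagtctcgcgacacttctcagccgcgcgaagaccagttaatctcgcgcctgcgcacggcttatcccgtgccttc
Hormad1 (chr3:95559427-95559676, plus strand): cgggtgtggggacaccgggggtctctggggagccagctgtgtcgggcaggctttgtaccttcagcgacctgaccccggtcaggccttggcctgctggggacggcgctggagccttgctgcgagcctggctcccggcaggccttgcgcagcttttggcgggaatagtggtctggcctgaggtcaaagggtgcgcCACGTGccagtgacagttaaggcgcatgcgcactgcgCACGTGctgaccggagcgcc
Slc25a31 (chr3:40708621-40708870, plus strand): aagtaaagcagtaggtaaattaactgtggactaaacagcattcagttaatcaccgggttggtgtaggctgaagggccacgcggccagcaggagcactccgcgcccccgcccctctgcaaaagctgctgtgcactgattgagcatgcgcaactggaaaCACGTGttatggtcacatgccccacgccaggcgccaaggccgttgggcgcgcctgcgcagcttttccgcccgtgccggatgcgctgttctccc
Mael (chr1:166238745-166238994, minus strand): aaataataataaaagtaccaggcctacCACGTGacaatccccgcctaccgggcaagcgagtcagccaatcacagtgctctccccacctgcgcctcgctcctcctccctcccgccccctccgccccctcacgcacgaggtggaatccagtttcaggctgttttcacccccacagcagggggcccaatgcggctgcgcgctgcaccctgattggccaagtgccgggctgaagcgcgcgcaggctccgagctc
Dazl (chr17:50293621-50293870, minus strand): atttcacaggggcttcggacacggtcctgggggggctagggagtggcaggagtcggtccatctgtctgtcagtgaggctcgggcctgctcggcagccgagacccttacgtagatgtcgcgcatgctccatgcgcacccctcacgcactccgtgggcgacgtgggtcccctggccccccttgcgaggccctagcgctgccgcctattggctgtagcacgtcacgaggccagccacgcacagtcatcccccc
Sycp3 and Hormad1 each hold 2 copies, which start 64 and 43 bases before the Sycp3 start and 57 and 20 bases before that of Hormad1, yet they changed in opposite directions. The single copies lie 170 bases upstream in Stag3, 93 in Slc25a31 and 223 in Mael. A match describes the letters and does not show a bound site.

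Markers of spermatogonial stem cells were mixed. Of 26 measured, 4 rose and 1, Cdh1, fell, with a median of 0.19. Thy1, a surface antigen of spermatogonial stem cells and of fibroblasts, had 8.76, 8.94 and 8.88 in ESC_like, against 4.48, 4.10 and 4.43 in ESC, a 23-fold rise, beside a MEF mean of 10.40. Uchl1, a ubiquitin hydrolase of spermatogonia and neurons, had 9.53, 9.08 and 9.48 in ESC_like, against 7.15, 7.13 and 6.83 in ESC, a rise of 2.33 ± 0.16 (SE), adjusted p = 8.3e-10, and its MEF mean of 6.84 was below that of ESC. Sohlh2, a helix-loop-helix factor of differentiating spermatogonia, rose by 1.25 (adjusted p = 3e-06). Cd9 and Etv5, high in both groups, differed by 0.26 (adjusted p = 0.13) and 0.41 (adjusted p = 0.25).

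A minority of imprinted genes were called. Of 26 measured paternally expressed genes 6 rose and none fell, with a median of 0.02, and of 27 maternally expressed ones 4 rose and 1 fell, with a median of -0.15. Nnat, a proteolipid of the developing brain, had 8.02, 7.59 and 8.07 in ESC_like, against 5.76, 5.36 and 4.84 in ESC, a rise of 2.58 ± 0.41 (SE), adjusted p = 7.3e-05. Plagl1, a zinc-finger regulator of an imprinted gene network, had 11.21, 11.19 and 11.39 in ESC_like, against 9.25, 9.13 and 9.12 in ESC, a rise of 2.10 ± 0.14 (SE), adjusted p = 3.3e-10, with a MEF mean of 10.52, below all ESC_like arrays. Its probe sets ranged from -0.21 to 2.10. Peg3 rose by 1.45 (adjusted p = 2e-07) and Mest, on chromosome 6, by 1.09 (adjusted p = 7.2e-07), and for both the ESC_like mean exceeded that of MEF, 9.38 and 8.31.

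Other imprinted genes that rose had higher means in MEF than in ESC_like. The growth factor gene Igf2 had 9.71, 9.93 and 10.03 in ESC_like, against 7.08, 7.04 and 7.25 in ESC, a 6.8-fold difference, and a MEF mean of 12.28. Grb10, an adaptor that restrains insulin and IGF signalling, had 9.57, 9.58 and 9.73 in ESC_like, against 6.17, 5.71 and 5.87 in ESC, a 13.1-fold difference, and a MEF mean of 12.08. Ndn rose by 2.35, the long noncoding RNA Meg3 by 1.34, Osbpl5 by 1.32 and the proteoglycan Dcn by 1.25, and each of these 4 had a higher mean in MEF than in ESC_like. The 11 probe sets of Meg3 ranged from -0.53 to 2.20, and Osbpl5 lost its call without ESC replicate 3. Atp10a, a phospholipid flippase, was lower, with a difference of -1.42. Averaging the probe sets ended the calls of Atp10a (-0.66), Meg3 (0.91) and Dcn (0.65), and Atp10a had -0.29 without probe sets whose names mark shared sequence. Gnas and Ube3a, abundant maternally expressed genes, differed by 0.86 (adjusted p = 4e-05) and -0.33 (adjusted p = 0.2).

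**Figure D2:**
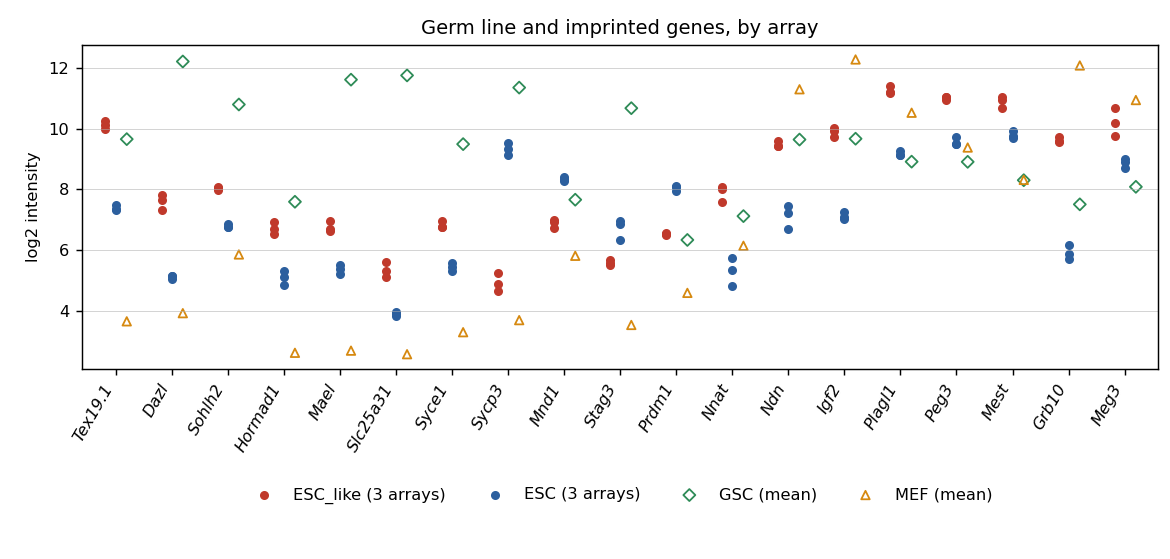
Log2 intensity of 11 germ line and 8 imprinted genes, with 3 arrays of ESC_like (red) left of 3 of ESC (blue) and the means of GSC (diamonds) and MEF (triangles). Sycp3 is under 5.3 in ESC_like and over 9 in ESC, Dazl and Tex19.1 are higher in ESC_like, and Igf2 and Grb10 have MEF means above every ESC_like array.

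Genes of the writers, readers and erasers of DNA methylation gave no calls among 18 measured, with a median of -0.15 and a range of -0.65 to 0.97. The catalytically inactive partner of the methyltransferases, Dnmt3l, had 11.26, 11.04 and 11.33 in ESC_like, against 11.68, 11.59 and 11.54 in ESC. The corepressor Trim28 differed by -0.05 (adjusted p = 0.81) and the helicase Hells by -0.47 (adjusted p = 0.0076). Among 28 Polycomb and remodelling genes 2 rose, where 5.11% of all genes did. They were Yaf2, a binding partner of Ring1 proteins, by 1.70 (adjusted p = 3.4e-07), and Phc2 by 1.34 (adjusted p = 3.2e-06). Both are higher in MEF. Eed, a core subunit of the H3K27 methyltransferase, differed by -0.66 (adjusted p = 0.00076).

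Fibroblast genes made up the most uniform rise. Of 310 genes marked as high in MEF, with a mean of at least 9 and at least 4-fold over NSC, 199 rose (64.2%) and 7 fell (2.26%), or 66.5% called in all. They form 21.4% of all genes that rose. Of the 34 measured fibroblast and feeder markers 30 rose and none fell, with a median of 3.16. These markers summed to 15.15 to 15.35 in ESC_like, against 12.49 to 12.61 in ESC, 13.70 to 14.24 in gPS and 17.13 in MEF on the log2 scale, and 18 of them had an ESC mean under 5. On the linear scale, with NSC as 0 and MEF as 100%, the median share of the MEF level over the 310 genes was 17.5%, 18.25% and 19.89% on the ESC_like arrays, and 1.2%, 0.89% and 0.74% on the ESC arrays. The shares were wide apart from gene to gene, with quartiles of 7.96% and 32.88% on the first ESC_like array. In such bulk RNA, more feeder cells and more fibroblast-type RNA per stem cell cannot be told apart.

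Single genes reached very different levels. Cd44, the hyaluronan receptor, had 10.31, 10.58 and 10.55 in ESC_like, against 3.21, 3.39 and 3.35 in ESC, a 143-fold difference from ESC levels near the array's floor. The fibrillar collagen gene Col3a1 had 9.37, 9.47 and 9.58 in ESC_like, against 3.74, 3.48 and 3.62 in ESC, and Col5a2 had 10.08, 10.45 and 10.44 in ESC_like, against 5.04, 4.52 and 5.01 in ESC. Cdh11, a mesenchymal cadherin, rose 77.8-fold, the prostaglandin synthase Ptgs2 57.8-fold, the matrix protein Thbs1 51.5-fold and the fibulin Fbln2 35.6-fold. All of these had MEF means above 11. The smooth muscle actin Acta2 had 12.39, 12.38 and 12.61 in ESC_like, against 7.49, 7.53 and 7.78 in ESC, and the weakest of its 3 probe sets gave -0.06. Fn1, fibronectin, was already high in ESC and was not called, at 0.75 (adjusted p = 0.00051).

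In 23 of the 310 genes the ESC_like mean exceeded the MEF mean itself, and in 20 of the 310 the ESC mean did so. Mgp, an inhibitor of calcification, had 11.10, 11.10 and 11.05 in ESC_like, against 4.32, 4.34 and 4.47 in ESC, a 104-fold rise, and a MEF mean of 9.65. Grem1, a secreted BMP antagonist, had 10.18, 10.16 and 10.48 in ESC_like, against 5.20, 4.92 and 5.34 in ESC, against a MEF mean of 9.06. GSC and gPS were also high for Mgp, at 9.14 and 10.24, whereas Grem1 had 5.69 in GSC and 7.72 in gPS. Over all called genes, the ESC_like mean was above the MEF mean in 295 of the 930 that rose (31.7%). The share over all genes was not counted.

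**Figure D3:**
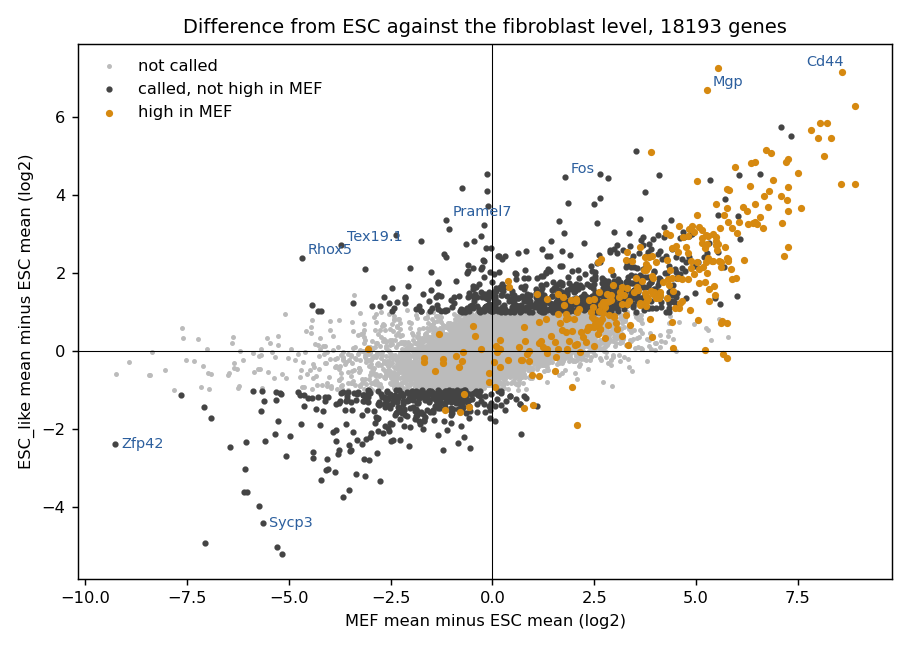
For each of 18193 genes, the ESC_like minus ESC difference (vertical, log2) against the MEF minus ESC difference (horizontal, log2); both axes share the ESC arrays. Genes high in MEF (orange) lie mostly at the upper right, and called genes (dark) at the upper left, such as Rhox5, Tex19.1 and Pramel7, rose while MEF lay below ESC.

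The leading macrophage gene, lysozyme, was among the largest rises of all. Lyz1 had 10.76, 11.02 and 10.96 in ESC_like, against 4.28, 3.21 and 3.46 in ESC, a 153-fold difference from ESC levels near the array's floor, and Lyz2 had 9.80, 9.98 and 10.06 in ESC_like, against 5.22, 4.35 and 4.82 in ESC, 35.5-fold. The 2 paralogs are nearly identical in sequence, and the array may not tell them apart; other probe sets of Lyz1 gave as little as 0.10. MEF reached 9.19 and 8.33, below ESC_like, and GSC 12.14 and 10.96, above it. Of 15 measured macrophage markers 7 rose and none fell, with a median of 0.80, among them the protease Ctss (3.04), the leukocyte tetraspanin Cd53 (2.18), the adaptor Tyrobp (1.47) and Cd14 (1.27). Cd68 and Csf1r, which define the lineage, did not pass the test, at -0.14 (adjusted p = 0.62) and 0.47 (adjusted p = 0.055). The 15 markers summed to 11.83 to 12.07 in ESC_like, against 10.01 to 10.13 in ESC, 12.82 to 12.85 in GSC and 10.64 to 10.85 in MEF, and 3 of them had an ESC_like mean under 5. Much of the ESC_like sum comes from Lyz1 and Lyz2, so it does not show a rise of the list as a whole. The part of macrophage RNA in these rises was not tested.

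Rises that were not marked as fibroblast genes included other secreted and immune products. The matrix protein tenascin C (Tnc) had 9.81, 10.23 and 10.08 in ESC_like, against 3.88, 4.48 and 4.49 in ESC, with an NSC mean of 11.12. The metalloprotease gene Mmp3 had 8.34, 9.09 and 8.54 in ESC_like, against 4.07, 4.24 and 4.00 in ESC, and the mast cell protease Mcpt8 8.68, 8.76 and 8.40 in ESC_like, against 3.85, 4.34 and 4.10 in ESC. Both exceeded their MEF means of 6.74 and 8.18. Gbp2, a guanylate-binding protein induced by interferon, rose 21.6-fold and had a MEF mean of 6.64. Of 25 interferon and MHC class I genes 6 rose and 1 fell, with a median of 0.41. The class I genes H2-K1 and H2-D1 rose by 1.04 and 1.03, with lower means in MEF than in ESC, but each lost its call without ESC_like replicate 1, and H2-D1 also without ESC replicate 3. Oasl2 and Psmb8 rose by 2.01 and 1.59. Ifitm1, abundant in stem cells, was lower, with a difference of -1.29 (adjusted p = 0.018), and its call was lost without ESC_like replicate 2 or ESC replicate 3.

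Immediate early genes, which mitogens and stress switch on within minutes, mostly rose. Of 22 measured, in a list assembled after the values were seen, 16 rose and none fell, with a median of 2.51 against -0.09 over all genes. Fos had 11.65, 11.55 and 11.46 in ESC_like, against 7.11, 7.22 and 6.93 in ESC, a 22.1-fold rise, and Egr1 had 11.56, 11.59 and 11.70 in ESC_like, against 8.19, 8.50 and 8.11 in ESC, 10.2-fold. Fosb, Egr2, Jun and Junb rose by 3.24, 3.78, 3.04 and 2.02, the stress factor Atf3 by 2.64 and the antiproliferative gene Btg2 by 2.82. In 11 of the 16 the ESC_like mean was above the MEF mean, as for Fos (11.55 in ESC_like and 8.87 in MEF) and Egr1 (11.61 in ESC_like and 9.91 in MEF), and in 3 of them MEF lay below ESC. gPS had means of 10.72 for Fos and 10.56 for Egr1, also above ESC. Jund and Ier2 were not called, at 0.43 (adjusted p = 0.013) and 0.12 (adjusted p = 0.71). Promoter windows were counted for 14 of the 16 that rose, and Egr1 and Fosl1 were not among them. Windows on chromosome 18 were left out of this count, but not of the shares over all genes. In the first listed window of each of the 14, the serum-response CArG box was found in 1. The cAMP-response motif TGACGTCA, on either strand, was found in 2, and the shares of all genes were 1.4% and 1.62%. With every listed window of these 14, the CArG box was found in 2.

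Among the pathways that govern self-renewal, LIF, BMP and FGF genes gave 5 rises and 2 falls of 29 measured. The rises were Fos, Egr1, Junb, Etv4 (1.12) and Stat3, the effector of LIF. Stat3 had 9.66, 9.50 and 9.83 in ESC_like, against 8.81, 8.77 and 8.37 in ESC, a difference of 1.01 ± 0.16 (SE), adjusted p = 6e-05, at the edge of the threshold, and its 4 probe sets ranged from -0.31 to 1.01. Its call was lost without ESC replicate 3 or ESC_like replicate 3. Socs3, a direct target and inhibitor of that pathway, was not called, at 0.41 (adjusted p = 0.025). Id1 and Id2, the inhibitors of differentiation that BMP induces, were lower. Id1 had 8.37, 8.30 and 8.03 in ESC_like, against 9.78, 9.51 and 9.55 in ESC, and Id2 had 8.44, 8.68 and 8.47 in ESC_like, against 10.28, 10.32 and 10.35 in ESC, with differences of -1.38 ± 0.17 (SE), adjusted p = 4e-06, and -1.79 ± 0.31 (SE), adjusted p = 0.00018. Both are above 10 in MEF. Bmp4 itself differed by 0.07 (adjusted p = 0.88).

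Nodal and Wnt genes gave 5 rises and no fall among 27. Apart from Lefty2 these were the receptors Fzd1 (1.77) and Fzd2 (1.58), the Wnt target Axin2 (1.14) and Smad3 (1.12). Fzd1, Fzd2 and Smad3 were higher in MEF than in ESC_like, and Axin2, at 5.59 in MEF, was not. The Hedgehog list, also assembled after its values were seen, held 2 falls. Gli1, the transcription factor whose level reports pathway activity, had 5.25, 5.23 and 5.44 in ESC_like, against 7.75, 8.04 and 7.79 in ESC, and the receptor Ptch1, itself a target, had 9.08, 9.03 and 9.39 in ESC_like, against 11.17, 11.36 and 11.05 in ESC. The differences were -2.55 ± 0.22 (SE), adjusted p = 1.8e-08, and -2.03 ± 0.20 (SE), adjusted p = 1.8e-07. Gas1, a co-receptor, rose by 1.24, and the other 10 measured members were not called.

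Cell cycle regulators showed rises of D-type cyclins and of their inhibitors, with 6 rises and no fall among 29 genes. Ccnd2 had 10.28, 10.29 and 10.52 in ESC_like, against 4.93, 4.58 and 5.05 in ESC, a 45.6-fold rise on chromosome 6, with means of 11.02 in GSC and 12.20 in MEF. Ccnd1 had 9.81, 10.09 and 9.86 in ESC_like, against 7.07, 7.17 and 6.92 in ESC, and Ccnd3 rose by 1.73 (adjusted p = 2.3e-05), though the mean of its probe sets gave 0.57 and no call. Cdkn2a, the gene of p16 and p19Arf, had 8.33, 7.69 and 7.44 in ESC_like, against 5.28, 5.31 and 5.55 in ESC, a rise of 2.44 ± 0.21 (SE), adjusted p = 1.6e-08, and stood above the MEF mean of 6.73. Its neighbour Cdkn2b and the p53 target Cdkn1a rose by 2.67 and 2.61, both below MEF. Rrm2 and Cdk4, of the replicating cell, differed by -0.06 (adjusted p = 0.81) and -0.20 (adjusted p = 0.22).

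Of the 382 genes that fell, 360 (94.2%) had a lower mean in MEF than in ESC, against 60.1% of all genes. The fall and this MEF difference share the ESC arrays. A MEF mean under 5 was found for 160 of the 382 (41.9%), a share that was not counted over all genes. Kbtbd11, a kelch-repeat protein, had 4.51, 4.56 and 4.42 in ESC_like, against 9.70, 9.69 and 9.78 in ESC, a 37.4-fold difference on chromosome 8. Dpys, the pyrimidine-degrading dihydropyrimidinase, had 3.71, 3.69 and 3.65 in ESC_like, against 8.69, 8.91 and 8.50 in ESC, 32.5-fold. Prune2 was 30.5-fold lower and Fxyd6, a regulator of the sodium pump, 15.8-fold. Other probe sets of Kbtbd11, Dpys and Prune2 reached -0.12, -0.09 and -0.03. Pmel, the melanosome matrix protein, had 7.78, 7.63 and 7.60 in ESC_like, against 11.37, 11.24 and 11.25 in ESC, 12.3-fold, while Mitf, the melanocyte master regulator, was higher by 1.04 (adjusted p = 0.0013), a call that was lost without ESC_like replicate 2 or ESC replicate 1. Patl2, a repressor of translation in oocytes, had 7.67, 7.42 and 7.23 in ESC_like, against 11.13, 11.10 and 10.98 in ESC.

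Several of these genes had their highest group mean in ESC. Dpys had means of 4.05 in gPS, 3.36 in GSC and 3.41 in MEF. Napsa, an aspartic protease, fell to 4.46 in ESC_like, against 8.02 in ESC and 4.91 in gPS. Lrrc31 had means of 2.96 in ESC_like and 6.12 in ESC, and Spink10 of 4.14 in ESC_like and 7.49 in ESC. Lncenc1, a noncoding RNA of naive embryonic stem cells, had 5.56, 5.44 and 5.46 in ESC_like, against 8.53, 8.48 and 8.66 in ESC. The fatty acid transporter Slc27a2 and the acetyl-CoA synthetase Acss1 differed by -3.10 and -3.30.

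Markers of early lineages differed from list to list, beside 5.11% of all genes that rose and 2.10% that fell. None of 18 mesoderm and primitive streak genes passed the test. Among 21 endoderm genes 5 rose and 2 fell, but the rises were basement membrane and matrix genes that MEF also express: Sparc (2.45), Col4a2 (1.86), Lamb1 (1.53), the endocytic adaptor Dab2 and Col4a1 (1.24). The calls of Dab2 and Col4a1 ended with the mean of their probe sets (0.64 and 0.97). The falls were Apoe (-1.06) and Lamc1 (-1.02), the call of Lamc1 being lost without ESC_like replicate 2 and without ESC replicates 1 or 2. The trophoblast list gave 2 rises of 17, the keratins Krt19 (1.31) and Krt8 (1.09). The neural list gave 3 of 23, Vim (2.74), Fabp7 (1.73) and Zic5 (1.68), of which Zic5 had a MEF mean of 4.73, below ESC. Of 28 Hox genes, Hoxc8 and Hoxd13 rose by 1.37 and 1.17, and both were higher still in MEF. Markers of testis somatic cells gave 3 rises of 18, Acta2, Inhba (3.29) and Rhox5, and 11 of the 18 had an ESC_like mean under 5. The Sertoli cell genes Amh and Sox9 were not called, at -0.40 (adjusted p = 0.049) and 0.82 (adjusted p = 0.0015).

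Apart from the heat shock list, metabolic genes gave few calls, beside 7.21% of all genes called. Neither the 22 glycolytic genes nor the 27 of oxidative phosphorylation gave a call, with medians of -0.36 and -0.05. Of the 22 glycolytic genes, 15 had ESC_like arrays wholly below ESC and 1 wholly above, beside 31.0% and 23.2% of all genes. Pgk1 and Pkm differed by -0.36 (adjusted p = 0.011) and -0.26 (adjusted p = 0.21), and Atp5b by -0.12 (adjusted p = 0.44). Of 27 glutathione and detoxification genes Gstm5 rose by 1.76, and Gstm2 differed by -1.27, a call that was lost when any 1 of the 6 arrays was left out. Of 19 heat shock and unfolded protein genes 5 rose and none fell, with a median of 0.49. They were Atf3, the inducible chaperones Hspa1a (1.34) and Hspa1b (1.18), Hsph1 (1.18) and the serine synthesis enzyme Psat1 (1.32). Hsp90aa1 and Hspa8 differed by -0.06 (adjusted p = 0.68) and 0.27 (adjusted p = 0.027).

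**Figure D4:**
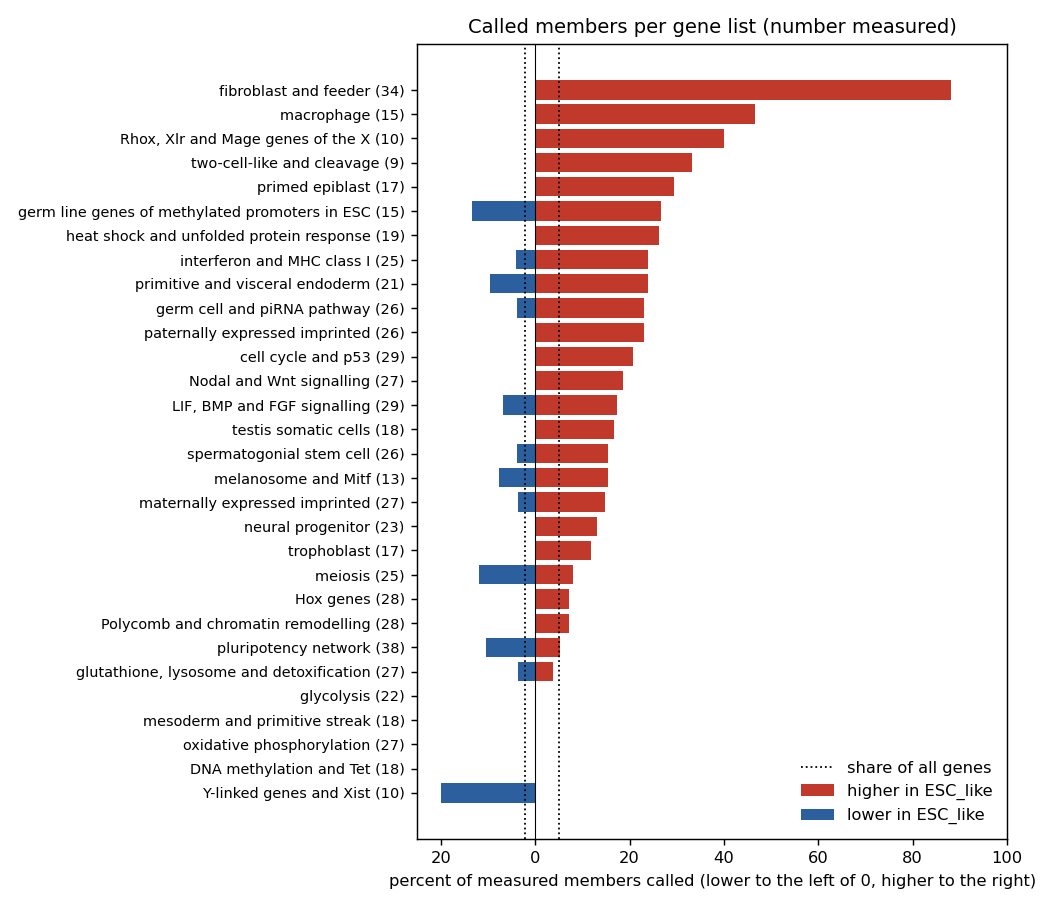
Percent of the measured members of 30 gene lists that were called higher in ESC_like (red, right of 0) or lower (blue, left of 0), with the share of all genes called in each direction as dotted lines (5.11% higher, 2.10% lower). Fibroblast and macrophage markers had the largest shares of rises, and glycolysis, oxidative phosphorylation, mesoderm and DNA methylation genes had no calls.

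On the sex chromosomes, both groups expressed some genes of the Y chromosome. Of 10 measured members of the list of Y-linked genes, Xist and Tsix, 5 had means under 5 in both groups. In that list 2 fell and none rose, and the part of feeder RNA in these levels was not tested. Eif2s3y had 9.03, 9.28 and 8.85 in ESC_like, against 10.06, 10.02 and 10.15 in ESC, a difference of -1.02 ± 0.56 (SE), adjusted p = 0.18, with the spread of all 6 groups. The groups did not overlap, and limma gave an adjusted p of 2.66e-05 on the 6 arrays alone and 0.00488 with array weights, both of which call it lower. Uba1y, a ubiquitin-activating enzyme gene of the Y that is strong in GSC (mean 12.11), had 6.38, 6.34 and 6.32 in ESC_like, against 7.65, 7.63 and 7.29 in ESC, a difference of -1.18 (adjusted p = 2.6e-05). Tsix, the antisense partner of Xist, differed by -1.58 (adjusted p = 1.3e-07). Xist, the RNA that silences an X chromosome, differed by -0.50 (adjusted p = 0.14), with probe sets from -0.50 to 2.01. Strand-specific hybridisation of these overlapping RNAs was not tested. Of 617 X-linked genes 50 rose (8.10%) and 18 fell (2.92%).

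Whole chromosomes were shifted between the groups. Over genes with a mean above 7 in either group, and relative to all such genes on the array, chromosome 8 had medians of -0.159, -0.199 and -0.168 in ESC_like, against 0.194, 0.176 and 0.167 in ESC, a difference of -0.355 over 442 genes. Chromosome 11 had 0.143, 0.118 and 0.188 in ESC_like, against -0.125, -0.151 and -0.166 in ESC, a difference of 0.297 over 642 genes. Chromosome 6 had 0.123, 0.124 and 0.130 in ESC_like, against -0.125, -0.113 and -0.115 in ESC, a difference of 0.243 over 365 genes. The next, X and 1, differed by 0.126 and 0.112. The arrays of the groups did not overlap for 13 of 20 chromosomes, these 5 among them, and for each of the 13 the two-sided exact permutation test over the arrays gave p = 0.1, the smallest that 3 against 3 allows, and 0.154 after adjustment over 20 chromosomes. The design cannot reach the threshold, and the test does not set these 5 apart.

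The shifts ran along the length of the chromosomes. When the genes of chromosome 8 were divided by gene order into 10 parts, every part had a median below 0, from -0.587 to -0.247. All 10 parts of chromosome 11 had a median above 0, from 0.201 to 0.400, and those of chromosome 6 ran from -0.004 to 0.339. Of the 442 expressed genes on chromosome 8, 261 had ESC_like arrays wholly below ESC and 63 wholly above, where 31.0% of all expressed genes lay wholly below and 36.3% wholly above. Chromosome 11 had 383 of 642 wholly above and 81 wholly below. Most of these differences were too small for a call: on chromosome 8 34 genes fell (3.65%) and 29 rose, and on chromosome 11 93 rose (6.44%) and 11 fell.

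The other groups place these shifts differently. Relative to the ESC mean, chromosome 8 stood at -0.376 to -0.351 on the ESC_like arrays, -0.337 to -0.311 in GSC, -0.401 to -0.363 in MEF and -0.066 to -0.033 in NSC, and 4 of the 5 gPS arrays at -0.302 to -0.229 with gPS replicate 2 at 0.010. On chromosome 8 it was thus the ESC, with NSC and 1 gPS array, that lay high. Chromosome 11 stood at 0.268 to 0.324 in ESC_like, and no array of another group exceeded 0.120, so there ESC_like stood apart. Chromosome 6 stood at 0.226 to 0.241 in ESC_like and at 0.191 to 0.314 on 3 gPS arrays, with gPS replicates 1 and 2 and all GSC, NSC and MEF arrays at or below 0.057. Copy number was not measured.

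**Figure D5:**
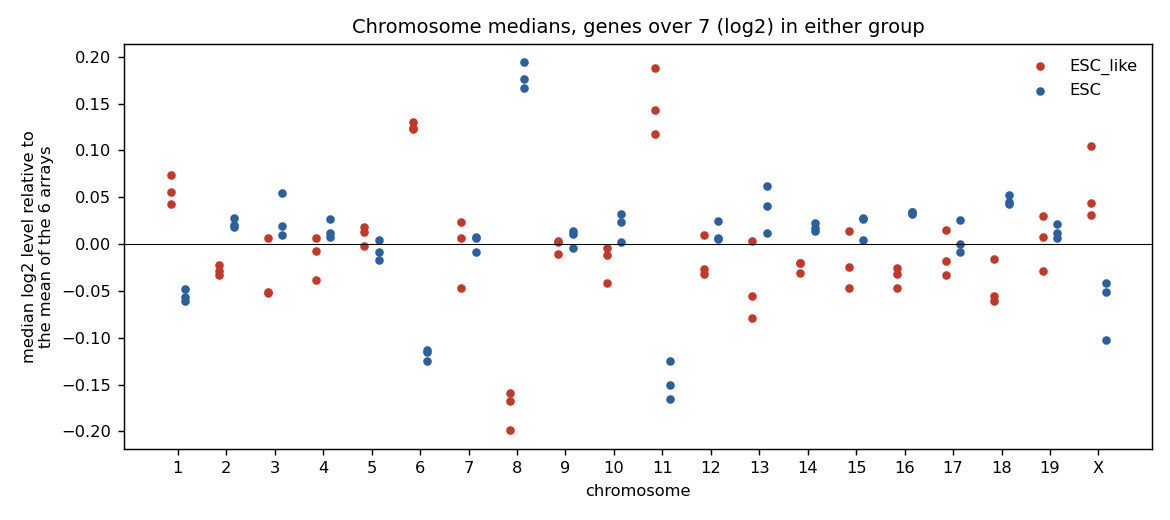
Median log2 level of each chromosome's expressed genes, relative to the 6-array mean of each gene, with each array centred on its expressed genes, for 3 ESC_like (red) and 3 ESC (blue) arrays. Chromosome 8 is lower in ESC_like, chromosomes 11 and 6 are higher, and the groups lie much closer on most others.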

How the data were processed

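Total RNA of 20 mouse cell samples was labelled with biotin and hybridised to Affymetrix arrays, per the labels' protocols. The deposited values are log2 intensities per probe set, made by the authors with RMA, per the submitters' processing notes. The RMA version, the genome build and whether the 20 arrays went through RMA as 1 set are not given in the sources used here. The log2 values ran from 2.04 to 14.71, with array medians of 4.95 to 5.04, and had no missing value. They were used as deposited.

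The arrays hold 45101 probe sets: 64 controls, 34945 named for 1 gene, 932 for several and 9160 unnamed. A gene was represented by its probe set with the highest mean over the 20 arrays, and 9010 of the 18193 genes had several. Symbols came from the platform annotation and matched a RefSeq gene table for 34741 probe sets. Group means of all 20 arrays were fitted with limma 3.58.1 in R 4.3.3, with 6 group means and no covariate, and p-values were adjusted by Benjamini-Hochberg over all genes. Errors are moderated standard errors. On simulated data with 18193 genes the fit called 44% of changes of 1 log2 unit, 100% of changes of 1.5 and 98% of changes of -1.5, with 1 false call. A true change of 1 lies on the 2-fold threshold itself, so many estimates fall below it and the 44% does not measure power. The number of arrays limits the precision.

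The members and gene lists were chosen with earlier results of these data known, and the lists of immediate early, Hedgehog and Pramel genes after the values were seen. Genes the text names were the markers of pluripotent cells, up to 6 called members per list and direction, up to 3 uncalled members with the highest levels, the 15 largest rises and falls, the 10 largest rises not high in MEF, and family members of these. Added after seeing the data were the 20 largest rises with a MEF mean below the ESC mean and the added lists. Promoter windows came from RefSeq tables on GRCm38.p6, which also gave each gene's chromosome. Replicate numbers were not treated as pairs, since they are not said to mark a shared batch. The correlations of the deviations of same-numbered ESC_like and ESC arrays were 0.134, 0.057 and -0.082. With 3 arrays per group these values cannot exclude a pairing. Alternatives were other scalings, weights and variance models, the 6 arrays alone, other uses of probe sets, filters, thresholds, the replicate number as a block, and each array left out. Python 3.11.15 was used for tables and plots, with numpy 2.4.6, pandas 2.3.3, scipy 1.17.1 and matplotlib 3.10.9.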

Additional observations from a re-analysis of the deposited data

How the results depend on the processing

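The counts of 930 genes higher and 382 lower in ESC_like stayed within 1.5 times under quantile normalization (854 and 456), centring (846 and 473), array weights (905 and 422), a variance trend with robust fit (928 and 381), the 6 arrays alone (933 and 386), probe sets averaged per gene (711 and 293), shared-suffix probe sets left out (803 and 358), dim genes left out (881 and 337) and genes high in MEF left out (731 and 375). With the replicate number as a block they were 930 and 384, and the block ended no call of a named gene. Leaving out 1 array at a time gave 871 to 968 higher and 361 to 428 lower. Counts moved by more than that when each probe set was tested (1657 and 693), with no fold threshold (2740 and 2391), at 1.5-fold (1901 and 1129) and at 4-fold (259 and 59). Restrictions added after seeing the data gave 124 higher and 360 lower among genes with a MEF mean below the ESC mean, 741 and 329 without chromosomes 6, 8 and 11, and 98 and 311 with both. The mean correlation of ESC_like with ESC, 0.964, became 0.972 without genes high in MEF. The mean ESC share of the MEF level became 0.18% over genes with a MEF mean of at least 11. Chromosomes 6 and 8 differed by 0.250 and -0.390 over genes expressed above 8. Signs turned for Plagl1 (-0.21), Xist (2.01), Hoxa5 (1.47) and Acta2 (-0.058) without shared-suffix probe sets, and for Egr3 (2.05) with the mean of its probe sets, since other probe sets then stand for these genes. Without shared-suffix probe sets 13 of the genes that could be named also lost their calls: Pramel6, Pramel7, Lyz1, Fbln2, Dpys, Id2, Stat3, Atp10a, Dab2, Tktl1, H2-D1, Sfi1 and Ccn1. With the mean of the probe sets 22 did: Nr5a2, Sox4, Pou3f1, Stat3, Axin2, Smad3, Tdrd7, Tktl1, Meg3, Dcn, Atp10a, Uba1y, Maged2, Dab2, Col4a1, Lamc1, Hoxd13, Psmb8, H2-K1, H2-D1, Ccnd3 and Gas1. Under both quantile normalization and centring Pou3f1, Stat3, Maged1, H2-K1, H2-D1, Oas1a, Mitf and Nr4a1 fell just below 2-fold. Krt8 did so under quantile normalization alone (0.994). Of 160 called genes that could be named, 41 lost the call or turned under some alternative other than a fold threshold. Few arrays, unknown line numbers and probe sets that disagree limit single genes.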
